A study of Homo sapiens with 8 samples.

Results

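The integrins and cadherins were followed as a set of 49 cell adhesion genes in 2 human uveal melanoma cell lines, across a depletion and an overexpression of the cytidine deaminase APOBEC3B (A3B). The members were all gene symbols in the files that carry the names of integrin α subunits (18 genes), integrin β subunits (8 genes) or numbered cadherins (23 genes), 49 of 19952 symbols in all.

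RNA was sequenced from 8 libraries in 4 groups of 2. The 92.1 line was given either a short hairpin RNA against A3B (shA3B) or the control (shCtrl), which the study's methods describe as an empty vector, and the MEL290 line carried either an A3B expression construct (A3B OE) or the negative control (NC). Both the hairpin and the A3B construct were delivered by lentiviral vectors with puromycin selection, and the labels do not say which hairpin was used or whether the 2 libraries of a group came from separate cultures. All p-values therefore measure only the spread between these libraries, which may be technical. Each manipulation was made in 1 line only, so that lowering and raising of A3B cannot be told apart from the line in which they were done.

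Integrins are heterodimers of 1 α and 1 β chain that bind the extracellular matrix or counter-receptors on other cells, and they connect these to actin through talin, kindlins and vinculin, or to keratin filaments in the case of α6β4. Classical cadherins join cells to each other through calcium-dependent binding of like molecules, and they are coupled to actin by the catenins. Melanocytes are attached to keratinocytes mainly by E-cadherin, and a change from E-cadherin to N-cadherin, often together with a gain of the integrin αVβ3, is well known in melanoma.

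The values were FPKM, fragment counts scaled to transcript length and to the mapped total of the library, which allow levels to be compared between genes within a library. The rough depth was 17800000 to 32400000 fragments per library. A3B, the manipulated gene, was at 35.9 and 32.3 FPKM in shCtrl and 1.98 and 2.37 in shA3B cells, and at 2.67 and 2.19 in NC and 28.4 and 27.5 in A3B OE cells. In 92.1 all 7 melanocyte lineage markers examined were at 1 FPKM or above in every library. In MEL290, 5 of the 7 (SOX10, MLANA, TYR, DCT and TYRP1) were below 1 FPKM in all 4 libraries, with TYR listed at 0 in each, and PMEL was at 0.836 to 1.31 FPKM. MITF alone was clearly present, at 13.7 to 19.6 FPKM, so the pigment cell origin of MEL290 is not shown by most of these markers. The keratins KRT8 and KRT18 were at 907 to 1295 and 770.2 to 1298 FPKM in MEL290, against at most 4.09 FPKM in 92.1, while the other 4 epithelial markers (EPCAM, KRT5, KRT19 and GRHL2) were below 1 FPKM in all 8 libraries. Of 6 fibroblast and mesenchymal markers, COL1A1 and PDGFRB were at 26.9 to 40.7 and 16.4 to 19.9 FPKM in MEL290 and 1.67 to 2.92 and 0.066 to 0.255 in 92.1, LUM was at 3.58 to 5.03 FPKM in 92.1 and under 1 in MEL290, and COL1A2, COL3A1 and DCN were below 1 throughout. The leukocyte (6 genes), endothelial (5 genes) and skeletal muscle (4 genes) markers were all below 1 FPKM in all 8 libraries.

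Only some of the family was expressed. Of the 49 members, 23 reached 1 FPKM in at least 2 of the 8 libraries (10 α, 5 β and 8 cadherins), 24 were below 1 FPKM in all 8, and 6 were listed at 0 in all 8 (CDH5, CDH9, CDH16, CDH22, ITGA8 and ITGAD). A value of exactly 0 can be a failed estimate in this kind of file, although 0 of 40 genes that every cell uses were at 0 in any library. The 92.1 libraries held 14 members at 1 FPKM or above in all 4, and the MEL290 libraries 17. The leukocyte α chain ITGAE was at 17.2 to 36.8 FPKM over the 8 libraries. Of the other leukocyte α chains, ITGAD was among those listed at 0. ITGAL, ITGAM and ITGAX were below 1 FPKM in every library, with ITGAX highest at 0.615 FPKM in 92.1. Also below 1 FPKM throughout were the platelet chain ITGA2B, the collagen receptors ITGA10 and ITGA11, the epithelial β6 and leukocyte β7 chains, and CDH6, CDH8, CDH12, CDH13, CDH15, CDH17, CDH18, CDH20, CDH23 and CDH26. The highest of these 24 genes was ITGA11 at 0.856 FPKM.

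The control cells of both lines were compared first, to show which adhesion genes each line started from. MEL290 cells had more integrin and cadherin transcript than 92.1 cells, and a largely different set of cadherins. The 18 α genes summed to 93.3 and 87.7 FPKM in shCtrl and 516 and 519.7 in NC libraries, the 8 β genes to 128 and 103 against 689.5 and 673, and the 23 cadherins to 61.5 and 45.2 against 208 and 231. The line, its control vector and any difference in culture or library making cannot be told apart in this comparison, and in bulk RNA a smaller share of cells with a transcript and less of it per cell look the same. In NC against shCtrl, 21 members were tested with limma on log2(FPKM + 1), and 15 were called higher and 5 lower in MEL290 at an adjusted p under 0.05. Of all 12352 genes tested, 33.7% were called higher and 39.3% lower. Of the 21 members, 4 had passed the filter of 1 FPKM through shCtrl alone (CDH3, CDH7, CDH19 and ITGA9). Another 6 had passed it through NC alone (CDH2, CDH4, CDH10, CDH11, ITGA4 and ITGB8). All of these had to differ, so that their adjusted p-values below do not test whether they do. The other 11 reached 1 FPKM in both groups, and 9 of them were called higher and 1 lower. The median difference was 2.09 over the 21 members and -0.08 over all genes, both in log2(FPKM + 1).

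The laminin-binding α chains were low in 92.1 and prominent in MEL290. ITGA3, the α chain of α3β1, a receptor for laminins of the basement membrane (chr17:50055968-50090481, plus strand, GRCh38), was at 5.6 and 7.58 FPKM in shCtrl and 259.9 and 252 in NC, a log2 difference of 5.09 (SE 0.14, adjusted p = 5.9e-06). It made up 6.0 and 8.64% of the summed α FPKM in shCtrl and 50.4 and 48.5% in NC libraries. ITGA6, which pairs with β1 or β4, was at 3.56 and 3.13 FPKM against 49.1 and 47.9 (log2 difference 3.51, SE 0.12, adjusted p = 9.2e-06). ITGA7, a laminin receptor best known from muscle, was at 1.6 and 2.0 FPKM in shCtrl and 51.1 and 57.1 in NC (log2 difference 4.30, SE 0.14, adjusted p = 8.3e-06), while the muscle markers MYOD1 and MYOG were listed at 0 in all 8 libraries. The ends of ITGA7 overlap the opposite-strand genes BLOC1S1 and METTL7B, and since the counting is not stated to use strand, their reads cannot be told apart there. In ITGA3, ITGA6 and ITGA7 no NC library overlapped with a shCtrl library, but the share of all genes without overlap was not counted.

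The window before the start site of ITGA6 is shown because it held more of the E-box hexamers searched for than any other member promoter in the reference table. It is the 250 bases upstream of its most upstream start site in RefSeq on GRCh38.p14, chr2:172427086-172427335 on the plus strand, and the capitals mark CACCTG (or its complement CAGGTG), the form bound by SNAI and ZEB repressors, and CACGTG, the form bound by MYC and MITF family proteins.
ITGA6: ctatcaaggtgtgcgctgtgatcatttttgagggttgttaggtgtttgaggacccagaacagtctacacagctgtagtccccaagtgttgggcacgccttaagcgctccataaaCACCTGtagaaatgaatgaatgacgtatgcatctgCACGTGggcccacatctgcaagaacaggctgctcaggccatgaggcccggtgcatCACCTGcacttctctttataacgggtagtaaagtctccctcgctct
The CACCTG matches begin 136 and 46 bases before this start site and the CACGTG match 101 bases before it. The window around another ITGA6 start site, chr2:172427336-172427635, held none of the hexamers searched for. Windows of 300 bases around the start (250 before and 50 after) held CACCTG on either strand in 20.6% of 27305 genes and in 4 of the 29 members found in the table when 1 start site was taken per gene, and they held CACGTG in 7.43% of genes and in 1 of the 29 on the same count. The hexamers do not overlap each other, and a match in letters does not show binding.

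Of the 4 α chains for fibronectin and other RGD ligands, ITGA5 and ITGAV were expressed in both lines, and ITGA8 and ITGA2B were below 1 FPKM throughout. ITGA5, the fibronectin receptor chain of α5β1, was at 17.9 and 22.8 FPKM in shCtrl and 83.8 and 95.8 in NC (log2 difference 2.09, SE 0.14, adjusted p = 9.1e-05). ITGAV, the partner of β1, β3, β5, β6 and β8, was at 19.5 and 11.6 against 30.1 and 30.9 FPKM (log2 difference 0.97, SE 0.23, adjusted p = 0.012). The call for ITGAV was lost when either NC library was left out (adjusted p up to 0.14). ITGA1, a collagen receptor at chr5:52787916-52959209 on the plus strand, was at 1.74 and 0.977 FPKM in shCtrl and 6.25 and 8.62 in NC (log2 difference 1.84, SE 0.22, adjusted p = 0.0008). PELO lies inside ITGA1 on the same strand and was at 4.49 to 12 FPKM over the 8 libraries. The neighbouring collagen receptor gene ITGA2, 30.1 kb away, had the opposite order, at 1.57 and 0.987 FPKM in shCtrl and 0.143 and 0.164 in NC, but did not pass the filter in this comparison and was not tested.

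Related α4 and α9 chains were found in different lines. ITGA4, the receptor for VCAM1 and an alternatively spliced part of fibronectin, was listed at 0 in all 4 libraries of 92.1 and was at 11.6 and 9.99 FPKM in NC. ITGA9, whose product binds tenascin C and osteopontin, was at 4.06 and 3.06 FPKM in shCtrl and at 0.0071 and 0.012 in NC (log2 difference -2.17, SE 0.14, adjusted p = 7.8e-05). The 92.1 line thus held ITGA9 and no measured ITGA4, and MEL290 held ITGA4 with ITGA9 near 0. ITGAE, the αE chain of the E-cadherin receptor αEβ7, was the most abundant α chain of 92.1, at 36.8 and 34.3 FPKM in shCtrl (39.4 and 39.1% of the α sum) and 22.5 and 17.2 in NC (log2 difference -0.82, SE 0.15, adjusted p = 0.0039). Its only known β partner, ITGB7, did not exceed 0.259 FPKM in any library, and CDH1, which encodes its ligand, was at most 2.14 FPKM. HASPIN lies inside ITGAE on the opposite strand and was at 1.5 to 7.29 FPKM over the 8 libraries. The ITGAE call was lost when either shCtrl library was left out (adjusted p up to 0.09).

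Among the β chains, ITGB1, the common partner of most α chains, was highest in every library, at 102 and 79.9 FPKM in shCtrl and 447 and 439.7 in NC (log2 difference 2.28, SE 0.13, adjusted p = 4.2e-05). ITGB5, which pairs with αV, was second in every library and was at 24.3 and 19.9 against 177 and 164 FPKM (log2 difference 2.90, SE 0.12, adjusted p = 1.7e-05). ITGB4, the hemidesmosomal β chain that pairs only with α6 (chr17:75721328-75757818, plus strand), was at 1.15 and 2.42 FPKM in shCtrl and 63.5 and 67.2 in NC (log2 difference 4.61, SE 0.23, adjusted p = 3.1e-05). The β4 and α6 transcripts, which encode the parts of 1 receptor, were thus both low in 92.1 and both abundant in MEL290. ITGB8, an αV partner that activates latent TGFβ, was at 0.266 and 0.174 FPKM in shCtrl and 1.44 and 1.46 in NC (log2 difference 1.01, SE 0.10, adjusted p = 0.00042). ITGB3, the β chain of αVβ3, was low in both controls, at 0.125 and 0.228 FPKM in shCtrl and 0.221 and 0.287 in NC, and was not tested between them.

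Each line had its own leading cadherins. Apart from CDH24, the cadherins tested here had passed the filter through shCtrl alone or NC alone, which fixed the direction of their differences. CDH7 and CDH19 are type II cadherins of neural crest derivatives that lie 610.7 kb apart on chromosome 18. CDH7 was at 31.9 and 22.8 FPKM and CDH19 at 15.2 and 9.07 FPKM in the shCtrl libraries. In NC libraries CDH7 was at 0.0045 and 0.019 FPKM (log2 difference -4.79, SE 0.19, adjusted p = 1.5e-05), and CDH19 was listed at 0 in all 4 libraries of MEL290. CDH3 (P-cadherin) was at 6.75 and 5.69 FPKM in shCtrl and 0.21 and 0.521 in NC (log2 difference -2.41, SE 0.17, adjusted p = 9.2e-05). In MEL290 the leading cadherin was CDH11 (OB-cadherin, typical of mesenchymal cells, chr16:64943753-65126112, minus strand), which was at 98.5 and 112 FPKM in NC and was listed at 0 in all 4 libraries of 92.1. It was followed by CDH2 (N-cadherin), at 0.385 and 0.277 FPKM in shCtrl and 87.8 and 95.9 in NC (log2 difference 6.12, SE 0.13, adjusted p = 3.1e-06). CDH4 (R-cadherin) was at 0.089 and 0.181 against 11 and 9.86 FPKM (log2 difference 3.33, SE 0.13, adjusted p = 1.5e-05). CDH10, a cadherin known from the nervous system, was at 0.238 and 0 against 2.34 and 3.07 FPKM (log2 difference 1.73, SE 0.16, adjusted p = 0.0003). CDH24, a type II cadherin, was the member tested here that was not called, at 6.13 and 6.53 FPKM in shCtrl and 7.4 and 8.18 in NC (log2 difference 0.26, 95% interval -0.07 to 0.59, adjusted p = 0.12). CDH1 (E-cadherin), the melanocyte cadherin, stayed below 1 FPKM in 7 of the 8 libraries.

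By share, CDH7 made up 51.9 and 50.5% and CDH19 24.8 and 20.1% of the summed cadherin FPKM in shCtrl, whereas CDH11 made up 47.3 and 48.6% and CDH2 42.2 and 41.5% in NC. Windows before the start sites of 3 cadherins with opposite patterns, all on chromosome 18, are shown so that their sequence can be set beside their levels. Each holds the 250 bases before the most upstream RefSeq start site on GRCh38.p14, at chr18:28177131-28177380 on the minus strand for CDH2, chr18:65750002-65750251 on the plus strand for CDH7 and chr18:66604091-66604340 on the minus strand for CDH19, and the capitals mark CG dinucleotides, the sites of DNA methylation.
CDH2: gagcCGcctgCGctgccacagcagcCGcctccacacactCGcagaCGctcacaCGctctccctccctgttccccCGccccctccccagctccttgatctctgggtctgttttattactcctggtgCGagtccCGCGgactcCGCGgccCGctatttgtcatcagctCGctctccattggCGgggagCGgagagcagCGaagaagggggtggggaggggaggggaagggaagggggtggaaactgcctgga
CDH7: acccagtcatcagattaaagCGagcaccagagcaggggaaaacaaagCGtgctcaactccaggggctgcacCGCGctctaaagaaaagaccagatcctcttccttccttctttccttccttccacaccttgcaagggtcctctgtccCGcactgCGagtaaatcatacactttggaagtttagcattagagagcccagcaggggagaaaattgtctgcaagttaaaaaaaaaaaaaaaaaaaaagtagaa
CDH19: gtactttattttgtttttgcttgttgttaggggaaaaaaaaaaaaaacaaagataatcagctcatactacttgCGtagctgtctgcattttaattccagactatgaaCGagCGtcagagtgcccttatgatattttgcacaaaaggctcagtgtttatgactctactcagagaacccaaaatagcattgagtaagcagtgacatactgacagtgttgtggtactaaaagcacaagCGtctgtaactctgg
The CDH2 window held 17 CG, the CDH7 window 6 and the CDH19 window 4, and the median over 27305 promoter windows of this length was 11 (quartiles 3 and 23). The share of windows with as many or fewer was 63.5% for CDH2, 41.6% for CDH7 and 35% for CDH19. Methylation was not measured in these libraries.

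The second comparison asked what A3B overexpression did to these genes in MEL290. The genes that rose were those for the laminin receptor chains α3, α6 and β4, the α1 and α4 chains and the cadherins CDH11 and CDH4, all at 1 FPKM or above in NC, and for the β3 chain, which was below 1 FPKM in NC. The other 10 members tested, among them ITGB1, ITGB5, ITGA5 and CDH2, were not called. In A3B OE against NC, 18 members were tested, and 8 were called higher and 0 lower by limma, while at an unadjusted p under 0.05 there were 10 higher and 2 lower. Of all 11611 genes tested, 10.3% were called higher and 7.49% lower, and at an unadjusted p under 0.05 there were 2081 higher and 1767 lower. ITGB3 passed the filter only through the A3B OE libraries and had to be higher there. The other 17 reached 1 FPKM in both groups, and 7 of them were called higher. The median difference was 0.27 over the 18 members and 0.0041 over all genes, in log2(FPKM + 1). Without A3B OE replicate 1, and likewise without replicate 2, the calls fell to 4 members, which were CDH11, ITGA3, ITGB3 and ITGB4 both times. Once the dependence on GC content and on length had been removed from each library there were 9 higher and 2 lower, the additional calls being ITGAV (higher), ITGA7 and CDH24 (lower).

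The β3 chain had the largest difference on this scale among the 18 members. ITGB3 (chr17:47253827-47313743, plus strand) was at 0.221 and 0.287 FPKM in NC and 2.37 and 2.57 in A3B OE, a log2 difference of 1.47 (SE 0.15, adjusted p = 0.0036). It passed the filter only through the A3B OE libraries, so its higher level there was a condition of being tested. Its αV partner was at 30.1 and 30.9 FPKM in NC and 35.2 and 40.7 in A3B OE, without a call (log2 difference 0.30, 95% interval 0.06 to 0.54, adjusted p = 0.086). Even in A3B OE cells, β3 stayed far below the other αV partner β5, which was at 177 and 164 FPKM in NC and 174 and 182 in A3B OE (log2 difference 0.06, 95% interval -0.12 to 0.23).

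Of the 3 laminin-binding α chains, ITGA3 and ITGA6 were called higher and ITGA7 was not. The α6 partner ITGB4 was called higher too, while ITGB1, which pairs with α3 and α6, was not called. ITGA3 went from 259.9 and 252 FPKM to 416 and 414, a log2 difference of 0.70 (SE 0.06, adjusted p = 0.0026), and its share of the α sum was 50.4 and 48.5% in NC and 57.7 and 58.1% in A3B OE. ITGB4 went from 63.5 and 67.2 FPKM to 107 and 95.6 (log2 difference 0.62, SE 0.08, adjusted p = 0.0073), a call that was lost with all 8 libraries in 1 fit (adjusted p = 0.12). The opposite-strand gene GALK1, which overlaps ITGB4, was at 19.2 to 33.1 FPKM over the 8 libraries. ITGA6 went from 49.1 and 47.9 FPKM to 58.8 and 61.3 (log2 difference 0.30, SE 0.07, adjusted p = 0.04), a call that was lost when any 1 of the 4 libraries was left out (adjusted p between 0.08 and 0.17). ITGA7 was at 51.1 and 57.1 FPKM in NC and 45.5 and 41.1 in A3B OE, the lower direction, and was not called (log2 difference -0.31, adjusted p = 0.072). The 4 genes had no overlap between NC and A3B OE libraries. With 2 libraries a group such a separation alone carries little weight, and its share over all genes was not counted.

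The collagen receptor chain α1 and the VCAM1 receptor chain α4 rose too. ITGA1 was at 6.25 and 8.62 FPKM in NC and 11.7 and 16.2 in A3B OE (log2 difference 0.82, SE 0.20, adjusted p = 0.04). ITGA4 was at 11.6 and 9.99 against 18.1 and 15.2 FPKM (log2 difference 0.58, SE 0.13, adjusted p = 0.032). Both calls were lost without either A3B OE library (adjusted p up to 0.18 for ITGA1 and 0.14 for ITGA4), and that of ITGA4 also without NC replicate 2. The VCAM1 gene itself was listed at 0 in all 8 libraries. The fibronectin receptor chain ITGA5 was at 83.8 and 95.8 FPKM in NC and 110.0 and 102 in A3B OE (log2 difference 0.24, 95% interval 0.02 to 0.46, adjusted p = 0.13). The common β1 chain was at 447 and 439.7 against 445 and 484 FPKM (log2 difference 0.07, 95% interval -0.10 to 0.23), with overlapping libraries. ITGAE and ITGB8 were not called either (log2 differences 0.19 and -0.23). The ratio of summed α to summed β FPKM was 0.748 and 0.772 in NC and 0.986 and 0.931 in A3B OE libraries.

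Among the cadherins, CDH11 was at 98.5 and 112 FPKM in NC and 179 and 169 in A3B OE (log2 difference 0.72, SE 0.09, adjusted p = 0.0052). CDH4 was at 11 and 9.86 against 16.5 and 15.3 FPKM (log2 difference 0.56, SE 0.11, adjusted p = 0.021). The CDH4 call was lost without either A3B OE library (adjusted p up to 0.10). N-cadherin did not move with them, since CDH2 was at 87.8 and 95.9 FPKM in NC and 88.5 and 88.7 in A3B OE (log2 difference -0.05, 95% interval -0.23 to 0.13). As a share of the cadherin sum, CDH11 was 47.3 and 48.6% in NC and 61.2 and 59.4% in A3B OE, and CDH2 was 42.2 and 41.5% and 30.2 and 31.2%. CDH24 was at 7.4 and 8.18 FPKM in NC and 5.82 and 5.57 in A3B OE and was not called (log2 difference -0.39, adjusted p = 0.079), and CDH10 was at 2.34 and 3.07 against 1.33 and 2.53 FPKM (log2 difference -0.36, 95% interval -0.93 to 0.21). CDH7 and CDH19, the cadherins of 92.1, were listed at 0 in both A3B OE libraries.

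Some low members, picked out after their values were seen, were at their highest in A3B OE cells. The leukocyte β2 chain ITGB2 was at 0.149 and 0.061 FPKM in NC and 1.38 and 0.895 in A3B OE. CDH1 was at 0.18 and 0.393 against 0.301 and 2.14 FPKM, so that 1 of the 2 A3B OE libraries alone was high. Neither passed the filter in MEL290, and neither was tested.

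The third comparison asked the reverse question in 92.1, where A3B was depleted. No integrin or cadherin changed at the threshold used. In shA3B against shCtrl, 16 members were tested, all of which reached 1 FPKM in both groups, and 0 were called by limma at an adjusted p under 0.05, with 0 at an unadjusted p under 0.05. Over all 11605 genes tested 0.00862% were called, which is the A3B gene alone, and 336 had an unadjusted p under 0.05. Fits without the trend, with quantile or upper quartile scaling and with the other settings also called 0 members. The median difference was -0.06 over the 16 members and 7.6e-05 over all genes, in log2(FPKM + 1). The differences of the members ran from -0.25 (CDH19) to 0.16 (ITGA7), and the outer ends of their 95% intervals were -0.78 (CDH19) and 0.60 (ITGA7). For each member, no change within its own interval was excluded with 2 libraries a group. The intervals are not adjusted for the number of genes, so a larger change could also go uncalled.

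The members that rose in MEL290 showed no matching fall in 92.1 that could be called. ITGA3 was at 5.6 and 7.58 FPKM in shCtrl and 5.17 and 6.88 in shA3B (log2 difference -0.11, 95% interval -0.53 to 0.31), ITGA6 at 3.56 and 3.13 against 3.19 and 2.71 (-0.14, -0.53 to 0.25) and ITGB4 at 1.15 and 2.42 against 2.06 and 1.0 (-0.13, -0.73 to 0.47). ITGA1 was at 1.74 and 0.977 FPKM in shCtrl and 1.22 and 1.42 in shA3B (log2 difference -0.0048, 95% interval -0.49 to 0.48). In all 4 genes the libraries of the groups overlapped. ITGB3, at 0.125 and 0.228 FPKM in shCtrl and 0.174 and 0.343 in shA3B, and CDH4, at 0.089 and 0.181 and 0.164 and 0.052, were too low to be tested, and ITGA4 and CDH11 were listed at 0. Of the leading genes of 92.1, CDH7 was at 31.9 and 22.8 FPKM in shCtrl and 28.5 and 25 in shA3B (log2 difference -0.02, 95% interval -0.39 to 0.36). CDH19 was at 15.2 and 9.07 against 12.1 and 7.78 FPKM (-0.25, -0.78 to 0.28), ITGAE at 36.8 and 34.3 against 32.1 and 33.9 (-0.10, -0.40 to 0.19) and ITGB1 at 102 and 79.9 against 94.1 and 102 (0.11, -0.21 to 0.44). For CDH7 and CDH19 the spread within each group was larger than the difference between the groups. An exact permutation test of 1 gene with 2 libraries against 2 cannot give a p below 0.33, so no single gene was tested that way.

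**Figure D1:**
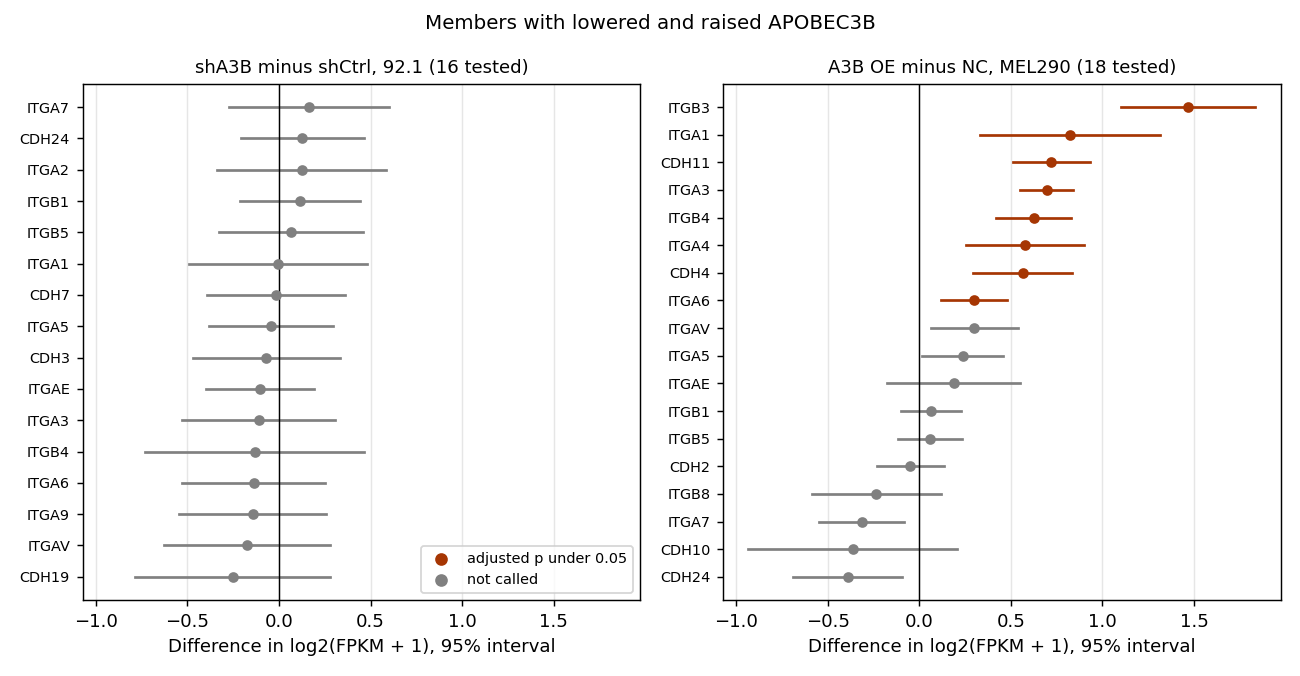
Difference in log2(FPKM + 1) (x axis) with its 95% interval for each member tested (y axis), after A3B depletion in 92.1 on the left and after A3B overexpression in MEL290 on the right, with called members in brown. All 16 intervals on the left include 0, and the 8 called members on the right run from 0.30 for ITGA6 to 1.47 for ITGB3.

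The effect of A3B OE in MEL290 minus the effect of shA3B in 92.1 was tested over all 8 libraries. These manipulations are opposite, so a gene that follows A3B alike in both lines also gives a large value. A3B itself had a difference of effects of 6.55. A call here therefore does not show that the lines respond differently. Of 23 members tested, 2 were called, ITGB3 and CDH11, where 4.4% of all 12697 genes were called. ITGB3 had a difference of effects of 1.37 (SE 0.18, adjusted p = 0.0091) in log2(FPKM + 1), and it was called under each of the alternatives run except the filter of 1 FPKM in every library, which it did not pass. CDH11 had a difference of 0.72 (SE 0.16, adjusted p = 0.044), which equals its effect in MEL290 since it was listed at 0 throughout 92.1, and the call was lost when any 1 of the 8 libraries was left out (adjusted p between 0.08 and 0.16). Both had passed the filter through MEL290 alone. Of the 11 members that reached 1 FPKM in both lines, 0 were called, with 5 at an unadjusted p under 0.05. Of all 12697 genes, 2531 had an unadjusted p under 0.05. The other members that were called in MEL290 were not called here, with differences of effects of 0.81 for ITGA3 (adjusted p = 0.081), 0.60 for CDH4 (0.11), 0.58 for ITGA4 (0.14), 0.44 for ITGA6 (0.17), 0.83 for ITGA1 (0.19) and 0.76 for ITGB4 (0.28).

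Genes that work with integrins and cadherins were read from a fixed list of 85 partner genes, of which 83 were in the files. In MEL290, 67 were tested with A3B OE against NC, and 17 (25.4%) were called higher and 7 (10.4%) lower, where 10.3% and 7.49% of all genes were. Without A3B OE replicate 1 there were 10 higher and 2 lower, and without replicate 2 there were 12 higher and 0 lower. Of the 9 tested activators of integrins and inside-out signalling genes, TLN1 (talin, which opens the integrin), FERMT2 (kindlin-2) and FLNA (filamin A) rose by 0.32, 0.46 and 0.36, and FERMT1 (kindlin-1) fell by 0.72 on the log2(FPKM + 1) scale. FERMT1 was at 4.13 and 3.48 FPKM in NC and 1.96 and 1.86 in A3B OE, FERMT2 at 19.8 and 17.4 against 26.4 and 25.5. The kindlins thus moved in opposite directions.

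Of 22 focal adhesion adaptors and kinases tested, 4 were higher and 2 lower, beside the 10.3% and 7.49% of all genes. PTK2B, the kinase PYK2, was at 2.58 and 2.25 FPKM in NC and 11.3 and 10.1 in A3B OE (log2 difference 1.78, SE 0.13, adjusted p = 0.0018), while its relative PTK2 (focal adhesion kinase) was at 56.3 and 64 against 55.4 and 50.7 FPKM. VCL (vinculin) was at 72.7 and 73.8 against 102 and 104 FPKM (log2 difference 0.48, SE 0.07, adjusted p = 0.0078), and TNS3 and LPXN were also called higher (0.33 and 0.82). The parvins PARVA and PARVB, which bind integrin-linked kinase, were called lower (-0.43 and -0.53).

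Among 18 ligands and counter-receptors tested, 7 were higher and 2 lower, beside the same 10.3% and 7.49%. POSTN (periostin), a ligand of αVβ3 and αVβ5, was at 18.6 and 18.7 FPKM in NC and 42.9 and 50.8 in A3B OE (log2 difference 1.28, SE 0.11, adjusted p = 0.0024). NID1 (nidogen-1, which links laminin to collagen IV) was at 1.25 and 1.59 against 4.55 and 4.7 FPKM (log2 difference 1.22, SE 0.15, adjusted p = 0.0053), and LAMB1, a laminin β chain, at 61.3 and 63.8 against 91.4 and 92 (log2 difference 0.55, SE 0.07, adjusted p = 0.0062). FN1 (fibronectin), THBS1 (thrombospondin-1), LGALS3 (galectin-3) and TGFB1 were the other genes called higher (0.41, 0.33, 0.71 and 0.76). SPP1 (osteopontin) and TNC (tenascin C) were called lower, at 11.7 and 8.81 FPKM in NC against 4.59 and 4.73 in A3B OE for SPP1 (log2 difference -0.98, SE 0.16, adjusted p = 0.011) and 5.19 and 7.26 against 2.95 and 3.78 for TNC (log2 difference -0.72, SE 0.19, adjusted p = 0.049). Both are ligands of α9β1, whose ITGA9 chain was near 0 in MEL290.

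The catenins that couple cadherins to actin were expressed in both lines. CTNNB1 (β-catenin) was at 238 and 208 FPKM in shCtrl and 92.3 and 85 in NC (log2 difference -1.32, SE 0.10, adjusted p = 0.00012), CTNNA1 (α-catenin) at 202 and 173 against 212 and 220.3 (adjusted p = 0.1), and CTNND1 (p120) at 32.4 and 29.7 against 48.6 and 45.3 (log2 difference 0.58, SE 0.10, adjusted p = 0.0029). JUP (plakoglobin) was called lower in MEL290 (-0.36) and CTNNAL1 higher (1.37), and ARVCF and PKP4 were not called. CTNND2 (δ-catenin) was listed at 0 in all 4 libraries of 92.1 and was at 4.86 and 4.93 FPKM in NC and 2.32 and 2.84 in A3B OE. With A3B OE, CTNNAL1 was called higher (0.75) and CTNND2 and ARVCF lower (-0.72 and -0.67), while CTNNB1, CTNNA1, CTNND1, JUP and PKP4 were not called. CTNNA2 and CTNNA3 did not exceed 1.07 and 0.352 FPKM. Of the 6 genes for cadherin sheddases and turnover tested with A3B OE, ADAM10, which cleaves E- and N-cadherin, was called higher, at 70.9 and 72.9 FPKM in NC and 99.4 and 105 in A3B OE (log2 difference 0.50, SE 0.07, adjusted p = 0.0084).

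The transcription factors that repress E-cadherin were split between the lines. SNAI2 (Slug) was at 74.6 and 58.2 FPKM in shCtrl and 0 and 0.33 in NC (log2 difference -5.86, SE 0.20, adjusted p = 1e-05). ZEB2, TWIST1 and TWIST2 were lower in MEL290 as well and all were called. The log2 differences were -2.20 for ZEB2 and -2.47 for TWIST1, and TWIST2 was listed at 0 in all 4 libraries of MEL290. SNAI2 and TWIST2 stayed below 1 FPKM in NC and had passed the filter through shCtrl alone, which fixed their direction. ZEB1 had the opposite order, at 0.394 and 1.2 FPKM in shCtrl and 13.2 and 12.4 in NC (log2 difference 2.98, SE 0.24, adjusted p = 0.00015), and rose further to 17.2 and 19.8 FPKM with A3B OE (log2 difference 0.49, SE 0.11, adjusted p = 0.032). SNAI1 was not called in either comparison. In all 56 partner genes were called between the controls, 40 higher (58%) and 16 lower (23.2%) in MEL290, of 69 tested, where 33.7% and 39.3% of all genes were. These counts include genes that passed the filter through 1 control alone, which fixed their direction. Among them were THBS1, POSTN and MMP2 through NC and ICAM1 through shCtrl. After A3B depletion in 92.1, 61 partner genes were tested and 0 were called by limma. An unadjusted p under 0.05 was found for 2 of them, TGFB1 (higher) and ADAM15 (lower), and for 336 of all 11605 genes. In the test of the difference between the effects, NID1, POSTN and PTK2B were called of 73 tested (4.11%), a share near the 4.4% of all genes. NID1 and POSTN were below 1 FPKM in every 92.1 library and had passed the filter through MEL290 alone.

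**Figure D2:**
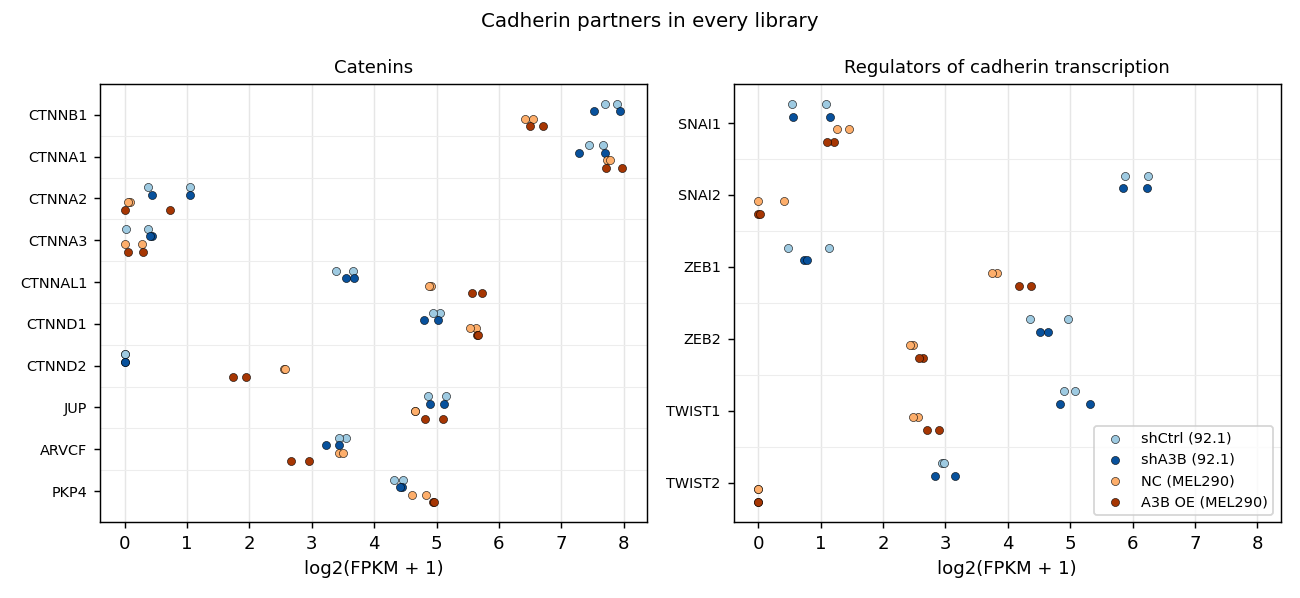
Level of 10 catenin genes (left) and of 6 regulators of cadherin transcription (right) as log2(FPKM + 1) on the x axis, 1 point per library and 2 libraries per group. SNAI2, ZEB2, TWIST1 and TWIST2 are higher in all 92.1 libraries and ZEB1 in all MEL290 libraries.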

How the data were processed

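RNA was extracted with Trizol and libraries were made with the NEBNext Ultra RNA kit, and whether strand was used in counting is not stated. Alignment to GRCh38 was done by the authors with STAR, and FPKM came from Cufflinks over Ensembl release 75 annotation, and the versions of these tools are not given in the sources used here. The deposited FPKM values, already divided by transcript length and mapped fragments, were the starting point. The authors called genes with Cuffdiff, which needs reads and was not run. Depth was only estimated, from genes of 1 transcript with low FPKM, and sets no counting error here.

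Values were transformed as log2(FPKM + 1), which understates the change of low genes. Genes with at least 1 FPKM in at least 2 libraries of a comparison were fitted in R 4.3.3 by limma 3.58.1, using lmFit and a trended eBayes, and p-values were adjusted by Benjamini-Hochberg over all genes tested, with calls under 0.05. Each comparison used its own 4 libraries, and the difference of effects used all 8. Gene coordinates came from GENCODE release 44 (all 49 members matched) and promoter sequences from RefSeq GRCh38.p14.

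Described in full were members called in any comparison, members with a mean of at least 4 FPKM in a group and the leaders of each class, and partner genes called after depletion or overexpression, with all catenins and the 6 regulators of cadherin transcription. The members and the lists were chosen with earlier results of these data known. Alternatives were no trend, quantile and upper quartile scaling, no filter or a filter of 1 FPKM in every library, a pseudocount of 0.1, a replicate block, removal of a GC and length trend, all 8 libraries in 1 fit, and leaving out each library.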

Additional observations from a re-analysis of the deposited data

Results flagged for a closer look

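ITGB3 and CDH11 are listed because the change with A3B OE in MEL290 minus the change with shA3B in 92.1 passed the threshold in a test of the difference itself. Such a call does not show that the lines respond differently, since the manipulations were opposite. The difference of the effects was 1.37 for ITGB3 and 0.72 for CDH11, in log2(FPKM + 1), with adjusted p-values of 0.0091 and 0.044 (limma). Both genes passed the filter through MEL290 alone. ITGB3 was under 1 FPKM in all 4 libraries of 92.1. CDH11 was listed at 0 in all 4, so that its value restates its change in MEL290 and no effect could be measured in 92.1, and its call was lost when any 1 of the 8 libraries was left out (adjusted p between 0.08 and 0.16).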

How the results depend on the processing

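Without the filter on low FPKM, 5 members and 11 partner genes were called with A3B OE against NC and 1 member (ITGB3) in the difference of the effects. The fifth of these members was ITGA2B. With 1 FPKM required in every library, 9 members were called between the controls, where 10 were tested, and 0 in the difference of the effects, for which 5 of the 10 tested members had an unadjusted p under 0.05. Of all 10021 genes tested for that difference under this filter, 1874 did. With a pseudocount of 0.1, 1 member and 1 partner gene were called in the difference of the effects, and with GC and length dependence removed 6 partner genes were. Leaving out 1 library in turn gave 4 to 7 members and 12 to 24 partner genes with A3B OE against NC, and 1 member each time (2 with all libraries) and 1 to 4 partner genes in the difference of the effects. The lowest counts with A3B OE came from leaving out either A3B OE library, and the lowest count of partner genes in the difference came without shA3B replicate 2.

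Of 256 values of single genes with 1 library left out, 221 kept their direction and their side of the threshold, 23 lost a call and 12 reversed. The reversals concerned differences that were not called. For A3B depletion these values covered only the members whose differences are printed above. For the difference of the effects they covered only the 8 members called with A3B OE. Members that passed the filter through 1 group alone had their direction fixed. Among the depletion values outside this tally, those of CDH3, ITGA5, ITGA9, ITGAV and ITGB5 also changed sign (-0.52 to 0.18 for ITGAV). With 1 library left out, the difference of shA3B from shCtrl in log2(FPKM + 1) ran from -0.60 to 0.092 for CDH19, -0.25 to 0.22 for CDH7, -0.24 to 0.23 for ITGA1, -0.30 to 0.078 for ITGA3, -0.061 to 0.29 for ITGB1 and -0.47 to 0.20 for ITGB4, and that of A3B OE from NC ran from -0.11 to 0.014 for CDH2. Upper quartile scaling turned the small differences of CDH7 and ITGA1 in 92.1 to 0.017 and 0.015, and a pseudocount of 0.1 turned that of ITGA1 to 0.011. Of 478 values of the same genes and comparisons under the other alternatives, 457 kept direction and call, 13 lost a call, 5 gained one and 3 reversed. The cause of these changes was not tested.

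The replicate numbers were not shown to pair the libraries, since the correlation of deviations between equally numbered libraries was 0.19 in 92.1 and -0.03 in MEL290, with 2 pairs each. With the replicate number as a block, 7 members were called with A3B OE (ITGA6 lost its call), 20 between the controls, 2 in the difference of the effects and 0 after A3B depletion, where 37 genes in all were called. In the difference of the effects CDH11 lost its call with the block and ITGA3 gained one. With 2 libraries a group and no counts, no difference within a given interval was excluded. The intervals are not adjusted for the number of genes tested. A difference whose interval lay above 0 could therefore also miss a call, as ITGA5 and ITGAV did with A3B OE.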
